A study of Mus musculus with 12 samples.

Results

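The histone marks at 6 genes tied to dedifferentiation and invasion in melanoma were followed in mouse melanoma cells with intact or mutant KMT2D: Axl, Egfr, Ngfr, Jun, Fosl1 and Wnt5a. The genes were fixed by name, and their members in the data are all deposited peaks that reached within 50 kb of the gene spans on the mouse build mm9. These came to 158 of the 173601 peaks in 10 peak lists, from 8 to 60 per gene. A peak list gives the stretches where the signal of a chromatin immunoprecipitation (ChIP-seq) library passed the threshold of a peak caller.

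Tumours raised on the ears of iBIP mice, on a mixed FVB and B6 background, gave the cultured cells. Every animal carried Tyr-CreERT2, a tamoxifen-dependent Cre recombinase driven by the tyrosinase promoter of melanocytes, together with Rosa26-rtta. A TetO-BRAFV600E transgene gave doxycycline-controlled oncogenic BRAF, and PTENL/L and INK/ARFL/L were conditional tumour suppressor alleles. Both genotypes received doxycycline and 1 uM 4-OHT on the ears. WT cells were KMT2D+/+ and mutant cells KMT2DL/L, that is, with both copies conditional. Each genotype had 1 library for each of H3K4me1, H3K27ac, H3K4me3, H3K79me2 and H3K27me3, and with no replicates the genotypes are compared by value alone, without a test. The number of mice, tumours or clones behind a genotype is not given in the sources used here, and the read depth is unknown.

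Melanoma cells can leave the pigmented, MITF-driven state for a dedifferentiated one that resembles neural crest or mesenchymal cells and is more invasive. AXL and EGFR are receptor tyrosine kinases and NGFR (CD271) is a neurotrophin receptor of neural crest stem cells; all are used as markers of that state. WNT5A is a secreted ligand of non-canonical WNT signalling, and JUN and FOSL1 are subunits of the AP-1 transcription factor. H3K4me3 marks promoters, H3K27ac active promoters and enhancers, H3K4me1 enhancers, H3K79me2 the early part of transcribed genes, and H3K27me3 genes held silent by Polycomb. KMT2D places H3K4me1 at enhancers. RNA was not measured here, so the marks are the only view of gene activity, and the cell type was not checked against lineage markers because no gene table on mm9 was used.

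The starts of 4 of the 6 genes were matched in the RefSeq promoter table of the mouse build GRCm38.p6, which holds 250 bases before and 50 after each start. They are shown because the contrasts described next are drawn at these sites: Jun and Axl had acetylated starts, and Ngfr and Egfr had starts under H3K27me3. Capitals mark the GC box GGGCGG (or its reverse complement CCGCCC) and, in Jun, the AP-1 site variant TGACATCA.
Jun (chr4:95052173-95052472, - strand): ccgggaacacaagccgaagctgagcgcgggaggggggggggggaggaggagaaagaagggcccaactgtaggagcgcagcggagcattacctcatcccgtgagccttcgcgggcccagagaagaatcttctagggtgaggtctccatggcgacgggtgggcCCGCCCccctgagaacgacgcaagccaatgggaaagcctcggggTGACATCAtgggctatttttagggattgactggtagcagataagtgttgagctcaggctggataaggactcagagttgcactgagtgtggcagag
Axl (chr7:25788684-25788983, - strand): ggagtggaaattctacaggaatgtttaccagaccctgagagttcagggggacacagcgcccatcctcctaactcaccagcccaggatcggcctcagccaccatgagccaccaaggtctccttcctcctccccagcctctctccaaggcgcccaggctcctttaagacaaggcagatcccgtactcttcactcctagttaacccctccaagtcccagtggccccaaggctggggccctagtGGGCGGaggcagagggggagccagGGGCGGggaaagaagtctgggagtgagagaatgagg
Ngfr (chr11:95587649-95587948, - strand): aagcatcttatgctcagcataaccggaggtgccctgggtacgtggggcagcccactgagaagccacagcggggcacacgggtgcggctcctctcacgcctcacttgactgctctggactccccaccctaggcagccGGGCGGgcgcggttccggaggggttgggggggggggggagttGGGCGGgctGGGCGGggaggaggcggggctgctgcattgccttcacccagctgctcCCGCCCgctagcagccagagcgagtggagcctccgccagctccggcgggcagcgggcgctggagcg
Egfr (chr11:16751953-16752252, + strand): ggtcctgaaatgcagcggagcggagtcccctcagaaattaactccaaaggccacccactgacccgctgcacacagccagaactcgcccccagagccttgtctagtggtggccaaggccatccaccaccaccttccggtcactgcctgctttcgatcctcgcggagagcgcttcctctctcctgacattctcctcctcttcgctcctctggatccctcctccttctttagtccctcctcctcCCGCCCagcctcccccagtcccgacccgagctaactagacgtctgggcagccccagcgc

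All 4 sequences held a GC box, with 4 of them in Ngfr, 2 in Axl and 1 each in Jun and Egfr. The GC box was in 35.7% of the 32851 promoters of the table. TGACATCA was searched after the data were seen, as the known AP-1 element of Jun itself. It lay 45 bases before the start of Jun, and 3.62% of all promoters held it on either strand. None of the 4 windows held the AP-1 consensus TGACTCA (5.20% of promoters, either strand), the cAMP response element TGACGTCA (1.79%), the E-box CACGTG (7.15%), the M-box CATGTG (14.2%) or TATAAA (13.6%). CG dinucleotides numbered 23 in Ngfr, 15 in Jun, 15 in Egfr and 6 in Axl, against a median of 7 over all promoters. Jun and Egfr thus had equal CG counts and unlike marks.

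The 6 genes fell into 2 kinds by their marks, a grouping made after the values were seen, and each gene was of the same kind in both genotypes. Axl, Jun and Fosl1 had H3K4me3, H3K27ac and H3K79me2 over the gene. Ngfr, Egfr and Wnt5a had H3K27me3 over the start and no H3K27ac within 40 kb of it. H3K4me3 and H3K79me2 did not set the kinds apart. WT Ngfr also had 2902 bp of H3K4me3 and 3326 bp of H3K79me2 over the gene. WT H3K79me2 covered 2749 bp over Jun and 2412 bp over Fosl1. In WT 5 of the 6 starts had an H3K4me3 peak within 1 kb, and in the mutant all 6 did. H3K27ac overlapped the start peak of H3K4me3 in Axl, Jun and Fosl1 in both genotypes, 3 of 5 in WT and 3 of 6 in the mutant. Over the whole lists 75.9% of the WT and 71.5% of the mutant H3K4me3 peaks overlapped H3K27ac. H3K27me3 overlapped the start peak of H3K4me3 in Ngfr and Wnt5a in WT (2 of 5), and in Ngfr, Wnt5a, Egfr and Fosl1 in the mutant (4 of 6). Egfr had H3K27me3 at the start in both genotypes (3312 bp in WT, 1502 bp in the mutant) but H3K4me3 there in the mutant alone. At Fosl1 the overlap was a weak H3K27me3 peak of 683 bp, 2.9 kb inside the gene, stronger than 16.0% of its list. No H3K27me3 lay within 2 kb of the Fosl1 start in either genotype. In the whole lists 16.5% of the WT and 15.6% of the mutant H3K4me3 peaks overlapped H3K27me3.

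**Figure D1:**
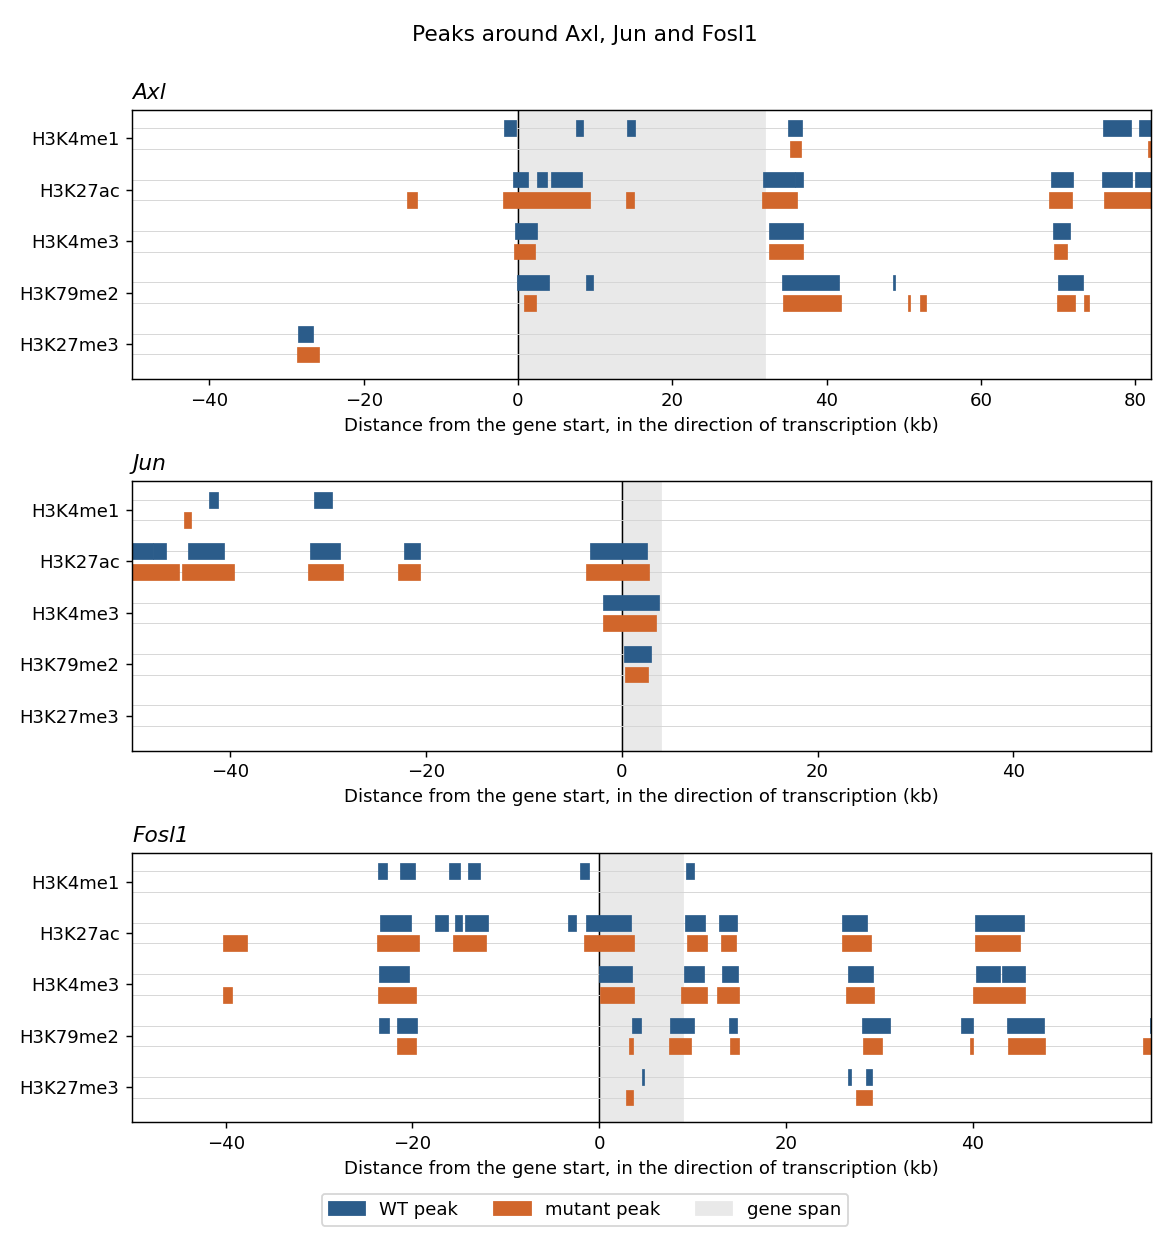
Peaks around Axl, Jun and Fosl1. The x axis is the distance from the gene start in kb along the direction of transcription, each row is 1 mark with WT above and mutant below, each bar is 1 deposited peak and grey is the gene span. H3K27ac and H3K4me3 stood at the starts of all 3 genes in both genotypes, while H3K4me1 numbered 14 peaks in WT and 3 in the mutant.

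Jun, the AP-1 subunit that can pair with itself or with a FOS protein, had the widest H3K4me3 start peak of the 6 genes. Its span runs on chromosome 4 from 94715001 to 94719000 and it is read towards lower coordinates. H3K4me3 covered 5709 bp in WT, from 94715239 to 94720947, and 5409 bp in the mutant, from 94715505 to 94720913. Both peaks had a score of 3100, a value that 711 WT and 314 mutant H3K4me3 peaks share. They were wider than 98.6% of the WT and 97.5% of the mutant H3K4me3 peaks. H3K27ac lay over the start from 94716455 to 94722268 in WT (5814 bp) and from 94716246 to 94722632 in the mutant (6387 bp). Its score was above that of 97.7% of WT and 97.2% of mutant H3K27ac peaks.

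H3K79me2 was a single peak inside Jun, 2749 bp in WT against 2328 bp in the mutant. H3K27me3 had no peak in the window, and the nearest ones were 2724 kb from the start in the WT list and 2723 kb in the mutant list. No mark had a peak on the downstream side of Jun in either genotype. The upstream side, where the annotated neighbour is the long noncoding RNA Junos, held a row of H3K27ac peaks in both genotypes. In WT they began 20.6, 28.7, 40.6, 46.6 and 47.9 kb before the start, with widths of 1601, 3127, 3739, 1271 and 2266 bp. The mutant had 4 in their place, 20.6, 28.4, 39.6 and 45.2 kb before the start, with widths of 2218, 3609, 5282 and 4941 bp. Every one of the WT peaks thus met a mutant peak, and the last pair of WT peaks met a single mutant one.

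The listed H3K4me1 peaks at Jun lay at different places of this row in WT and mutant. WT had peaks at 94748567 to 94750474 (1908 bp, score 376.4) and at 94760251 to 94761197 (947 bp). Neither had a mutant H3K4me1 peak, although mutant H3K27ac covered both over their full length. The mutant had 1 H3K4me1 peak, from 94762950 to 94763739 (790 bp), 43.9 kb before the start, and no WT H3K4me1 peak overlapped it. That peak was weak, with a score of 102.9, above 20.1% of the mutant list. With a score of at least 200 it was lost, and only the WT peak of 1908 bp was left. In all, H3K4me1 covered 2855 bp of the Jun window in WT against 790 bp in the mutant, while H3K27ac covered 17680 and 22319 bp.

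Fosl1, which codes for the FOS-family partner FRA-1 and is a target of MAPK signalling, lies on chromosome 19 from 5447001 to 5456000 in a region dense with genes. It was taken as read towards higher coordinates from general knowledge of the gene. H3K4me3 covered the start from 5446943 to 5450477 in WT (3535 bp) and from 5447031 to 5450740 in the mutant (3710 bp). H3K27ac reached further upstream, over 4780 bp in WT, from 5445608 to 5450387, and 5334 bp in the mutant, from 5445364 to 5450697. H3K79me2 inside the span was in 2 pieces in both genotypes, over 2412 bp (WT) and 1881 bp (mutant). The longer piece, from 5454549 to 5457164 in WT and from 5454464 to 5456839 in the mutant, lay across the end of the span. Ccdc85b overlaps Fosl1 in the GRCm38 annotation, and whether this peak lies over the shared stretch was not checked on mm9.

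H3K4me1 was absent from the mutant list across the whole Fosl1 window. WT had 6 H3K4me1 peaks there over 6946 bp, between 905 and 1620 bp wide, 5 of them upstream and 1 just past the gene end. The WT peak with the best score ran from 5425627 to 5427246 (score 275.8), and the next best had a score of 225.8. The others were weak, with scores of 103.5 to 126.0, above 14.2 to 31.1% of a WT list whose lowest score was 90. With a score of at least 200, or with lists of equal size, WT H3K4me1 here fell to 2921 bp. All 6 WT peaks of the full list were overlapped by H3K27ac in both genotypes, by 312 to 1301 bp in WT and by 556 to 1620 bp in the mutant. WT H3K4me3 overlapped the best-scoring one over 982 bp, and others over 862 and 905 bp. The best-scoring one also lay wholly within WT H3K79me2. The nearest mutant H3K4me1 peak was 58.7 kb from the start. H3K27ac covered 25591 bp of this window in WT against 27600 bp in the mutant. With flanks of 20 kb the order turned, and the lengths were 17097 and 16344 bp.

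The mutant had a further H3K27ac peak at 5406720 to 5409265 (2546 bp, score 342.4), beside an H3K4me3 peak at 5406702 to 5407699 (998 bp). No WT peak of any mark overlapped either. WT had small H3K27ac peaks without a mutant peak at 5429416 to 5430794 and at 5443686 to 5444525, with scores of 92.3 and 98.9, below which lay 1.20% and 4.44% of the WT list. H3K27me3 was small at Fosl1, 311 bp inside the span in WT, from 5451518 to 5451828, and 683 bp in the mutant, from 5449896 to 5450578. These did not overlap each other, and the mutant one lay within the H3K4me3 and H3K27ac peaks. Of the H3K4me3 peaks in the Fosl1 window, 6 of 7 in each genotype lay away from its start. The GRCm38 annotation places Drap1, AI837181, Fibp, Efemp2 and Cfl1 among the genes on either side, so the flank values cannot be given to Fosl1 alone.

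Axl, the receptor for the ligand GAS6, lies on chromosome 7 from 26542001 to 26574000 and is read towards lower coordinates. H3K4me3 at the start was nearly the same in both lists, from 26571582 to 26574432 in WT (2851 bp) and from 26571738 to 26574504 in the mutant (2767 bp). H3K27ac differed in shape. WT had 3 separate peaks over the first part of the gene, of 1949, 1233 and 4078 bp, the one at the start running from 26572669 to 26574617. The mutant had a single peak of 11323 bp, from 26564672 to 26575994, which was wider than 99.1% of the mutant H3K27ac peaks. Such joining was not confined to this site. In the far downstream flank WT peaks of 5404 and 3792 bp met a single mutant one of 9431 bp. The whole mutant list held 22343 H3K27ac peaks against 25060 in WT, with a covered-length ratio of 1.02. Over the Axl span H3K27ac covered 6936 bp in WT against 10662 bp in the mutant. Within 2 kb of the start on either side it covered 1949 and 3994 bp of 4000.

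H3K4me1 and H3K79me2 at Axl were both shorter in the mutant. WT had H3K4me1 inside the gene at 26558828 to 26559812 and at 26565516 to 26566470, and just before the start at 26574190 to 26575781 (1592 bp). None had a mutant H3K4me1 peak, and mutant H3K27ac overlapped all 3. In the order given, their scores were 157.7, 97.4 and 172.7, above 49.1%, 8.35% and 55.4% of the WT list. With a score of at least 200 none of the 3 was left. H3K79me2 touching the gene ran from 26569960 to 26574160 in WT (4201 bp), with a second peak of 909 bp. In the mutant only 1538 bp was listed, from 26571655 to 26573192. Over the span this is 4950 bp in WT against 1538 bp in the mutant, that is 15.5% and 4.81% of the gene. Longer acetylation and shorter H3K79me2 thus stood side by side in the same gene.

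The downstream side of Axl, where the next genes are Hnrnpul1 and Ccdc97, was much alike in both genotypes for 2 marks. H3K4me3 there had peaks of 4332 and 2162 bp in WT and of 4349 and 1709 bp in the mutant. The longer had a score above that of 93.6% of WT and 90.9% of mutant H3K4me3 peaks, against 53.4% and 42.8% for the peaks at the start of Axl. H3K79me2 covered 10794 bp of this flank in WT against 11322 bp in the mutant. The H3K4me1 peak with the best score of all those near the 6 genes lay near its far end, from 26494507 to 26498123 (3617 bp, score 781.4). It had no mutant H3K4me1 peak and mutant H3K27ac over 3463 bp. The remaining pair of WT H3K4me1 peaks in this flank, of 2511 and 1780 bp, had mutant counterparts of 1422 and 1484 bp. On the upstream side the mutant alone had a separate H3K27ac peak, from 26587098 to 26588431 (1334 bp). H3K27me3 lay beyond it in both genotypes, 26.5 kb before the start in WT (1924 bp) and 25.8 kb before it in the mutant (2900 bp).

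**Figure D2:**
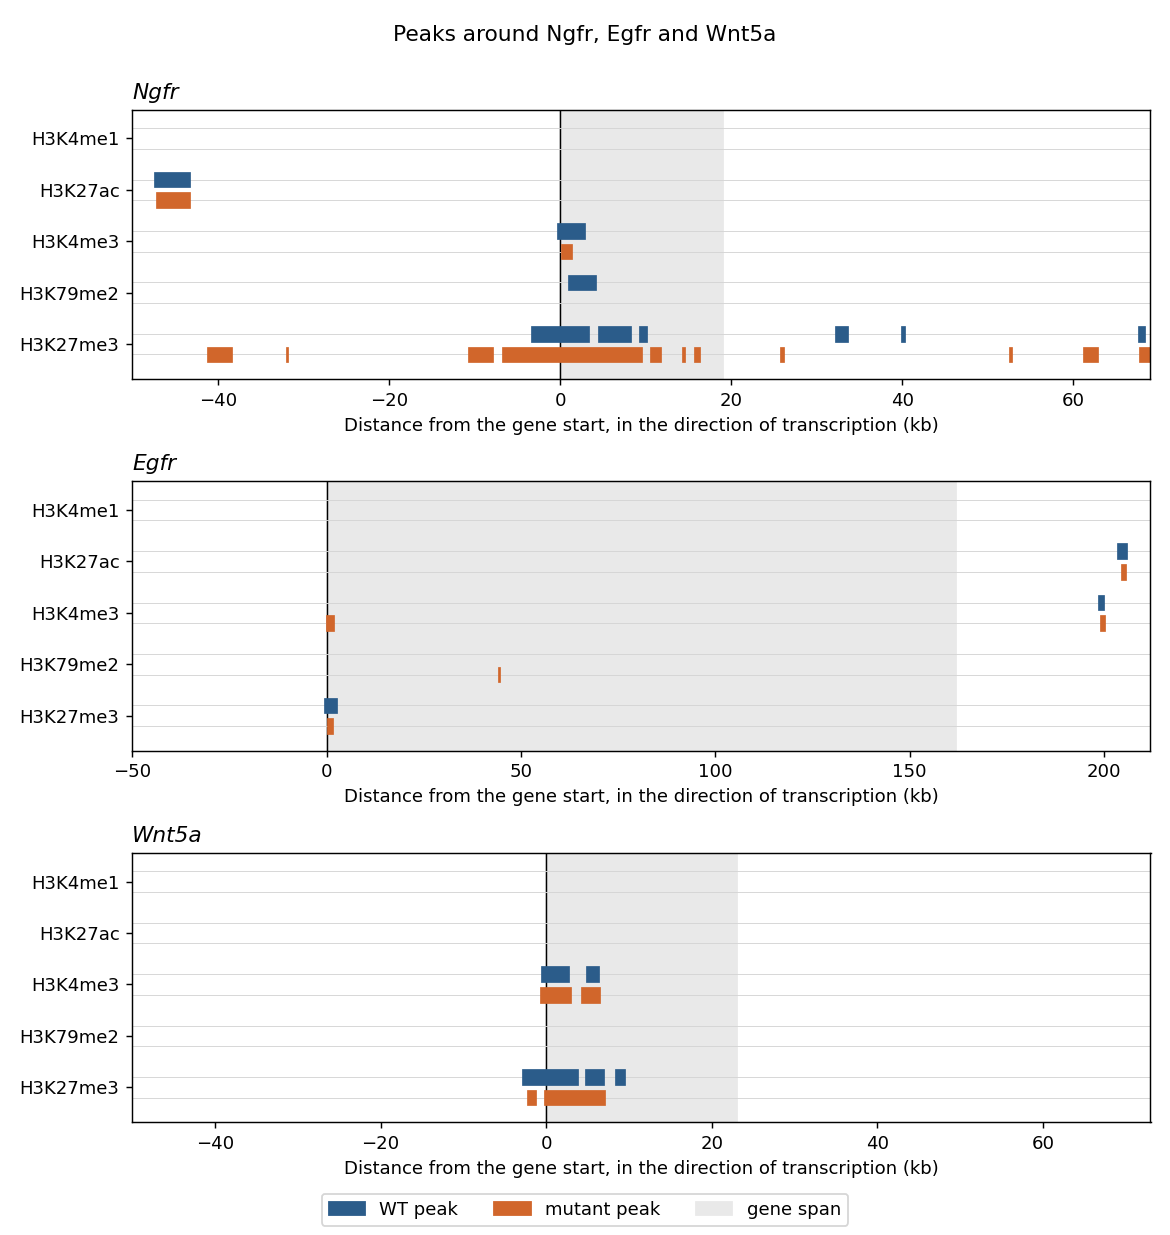
Peaks around Ngfr, Egfr and Wnt5a, drawn as distance from the gene start in kb along the direction of transcription, with WT above and mutant below for each mark and the gene span in grey. H3K27me3 stood at all 3 starts; at Ngfr its main peak was 6785 bp (WT) and 16357 bp (mutant), and no H3K4me1 peak appeared in any of the 3 windows.

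Ngfr lies on chromosome 11 from 95430001 to 95449000, is read towards lower coordinates and had the most H3K27me3 of the 6 genes. The H3K27me3 peak over its start ran from 95445621 to 95452405 in WT (6785 bp) and from 95439376 to 95455732 in the mutant (16357 bp). The mutant peak took in 11001 bp of WT H3K27me3, from 3 WT peaks. Over the gene span H3K27me3 covered 8115 bp in WT against 11810 bp in the mutant, or 42.7% and 62.2% of the gene. In the flanks it covered 6338 and 16668 bp, and in the whole window 14453 and 28478 bp, a ratio of 1.97. The mutant had 11 H3K27me3 peaks in the window and WT 6. Of these, 9 mutant and 2 WT peaks had no counterpart, as had 49.9% of the mutant and 35.0% of the WT list. The best-scoring of them ran from 95422880 to 95423278 in the mutant and from 95408640 to 95409156 in WT.

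H3K4me3 and H3K79me2 at the Ngfr start went the other way. H3K4me3 ran from 95446099 to 95449309 in WT (3211 bp) and from 95447604 to 95448935 in the mutant (1332 bp), and both peaks lay wholly under H3K27me3 of their own genotype. H3K79me2 was listed in WT over 3326 bp, from 95444807 to 95448132, and not in the mutant. That WT peak was weak, with a −log10 q of 4.17, above 17.0% of its list, and it was not retained with a −log10 q of at least 5. It overlapped WT H3K27me3 over 2512 bp. H3K27ac had no peak in the gene in either genotype. The 1 H3K27ac peak of the window stood 43.3 kb before the start in WT and 43.2 kb in the mutant, with widths of 4220 and 3943 bp. H3K4me1 was 101 kb away in WT and 126 kb in the mutant.

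Egfr, the longest of the genes, lies on chromosome 11 from 16652001 to 16814000 and is read towards higher coordinates. At its start the covered lengths differed in the other direction from Ngfr. H3K27me3 ran from 16651349 to 16654660 in WT (3312 bp) and from 16652137 to 16653638 in the mutant (1502 bp). H3K4me3 was listed only in the mutant, from 16651772 to 16653831 (2060 bp, score 247.0), where it covered the whole of the mutant H3K27me3 peak. The nearest WT H3K4me3 peak was 199 kb downstream. The mutant score was above that of 19.2% of its list. The rest of the gene was almost bare: apart from the start, the only peak over its 162 kb was mutant H3K79me2 of 390 bp, from 16696190 to 16696579. The nearest H3K4me1 peak was 415 kb from the start in WT and 417 kb in the mutant. In the downstream flank, on the side of Fbxo48, H3K27ac covered 2721 bp (WT) and 1247 bp (mutant), and H3K4me3 1489 and 1184 bp.

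Wnt5a, the ligand gene, lies on chromosome 14 from 29318001 to 29341000 and was taken as read towards higher coordinates. It was the most isolated of the 6: the only marks in its window were H3K4me3 and H3K27me3, and all their peaks lay at the start and in the first part of the gene. H3K4me3 at the start ran from 29317398 to 29320764 in WT (3367 bp) and from 29317222 to 29320942 in the mutant (3721 bp). A weaker H3K4me3 peak followed inside the gene, of 1630 bp in WT against 2280 bp in the mutant. H3K27me3 was in 3 pieces in WT, the longest from 29315053 to 29321788 (6736 bp), and in 2 in the mutant, the longer from 29317786 to 29325073 (7288 bp). The third WT piece, from 29326348 to 29327526, had no mutant peak. Over the span H3K27me3 covered 7320 bp (WT) and 7073 bp (mutant). With a −log10 q of at least 5 no WT peak and 7288 bp in the mutant were left, so the lists do not order the genotypes here. The nearest H3K27ac peak was 996 kb upstream in both lists, at 28320894 to 28322455 in WT and at 28321001 to 28322421 in the mutant.

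**Figure D3:**
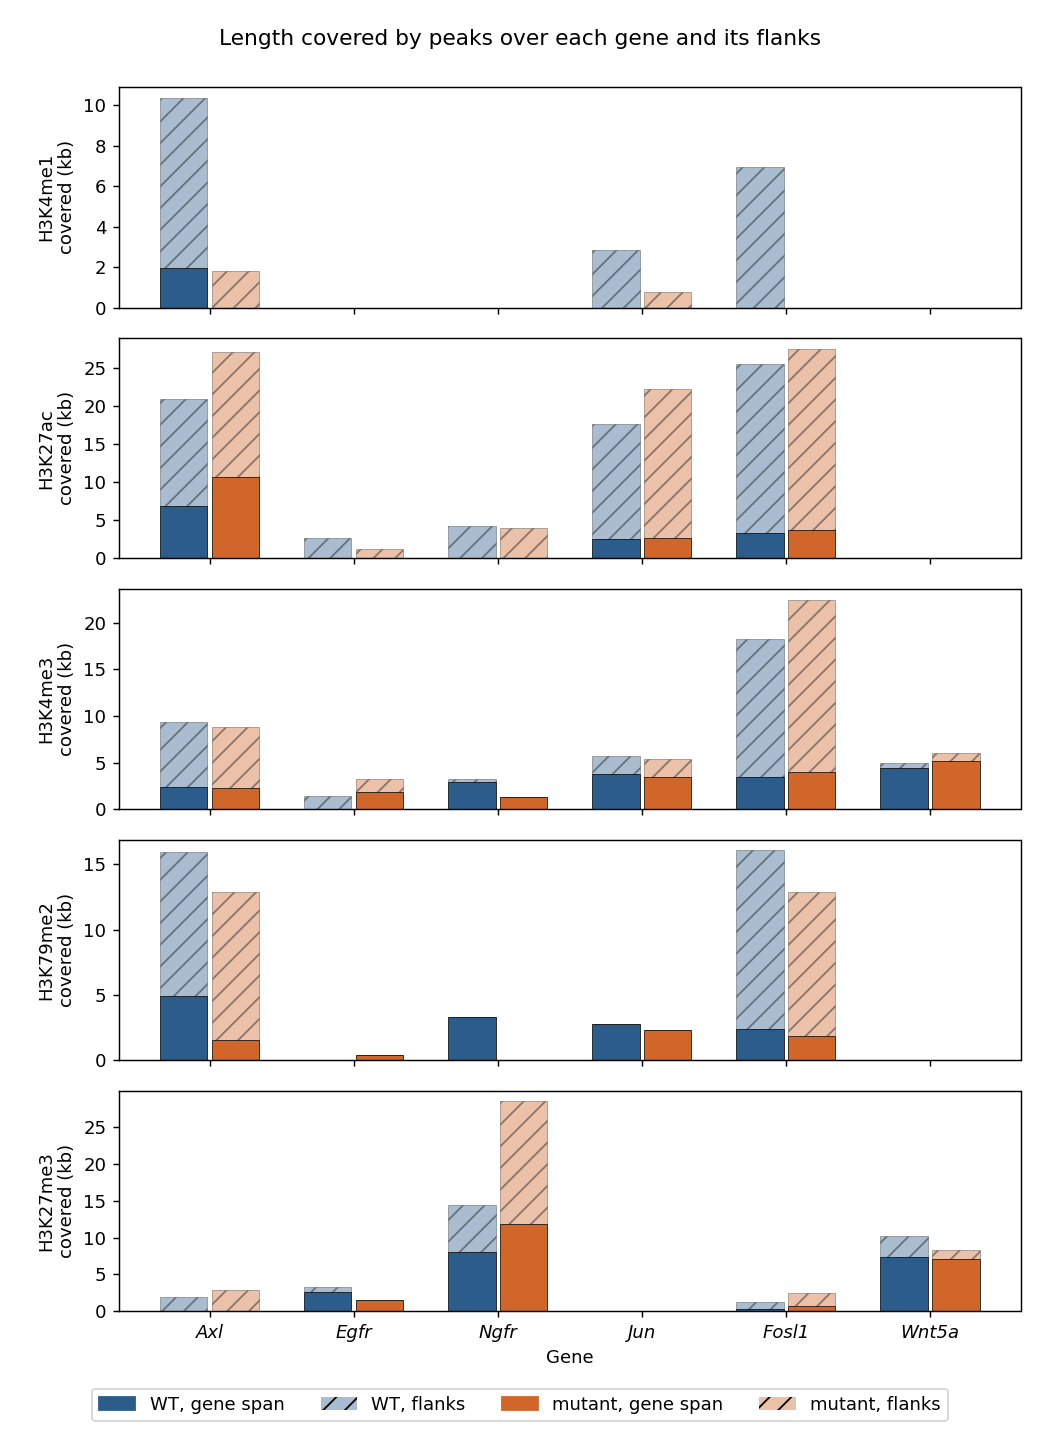
Length covered by peaks (kb, y axis) for each gene (x axis) and each of the 5 marks, with WT in blue and mutant in orange; solid bars are the gene span and hatched bars the flanks of 50 kb on each side, stacked. Each bar comes from 1 library, so there are no error bars; H3K4me1 was lower in the mutant at Axl, Jun and Fosl1, and H3K27me3 covered 14453 bp in WT against 28478 bp in the mutant at Ngfr.

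Across the 6 windows H3K4me1 covered 20168 bp (WT) and 2600 bp (mutant), a ratio of 0.129, all of it at Axl, Jun and Fosl1. Over the whole lists the ratio was 0.300. Of the 14 WT H3K4me1 peaks 12 had no mutant peak, 85.7% (exact Clopper-Pearson 95% interval 57.2 to 98.2, counting error only). The whole WT list had 77.0% without one, which lies inside that interval. Of the 3 mutant H3K4me1 peaks 1 had no WT peak, against 27.9% of the mutant list. With both lists limited to the same number of strongest peaks the ratio was 0.223, and 66.7% of the WT peaks (4 of 6) had no mutant peak. The share of the whole list was not recomputed for the limited lists. With flanks of 100 kb the ratio was 0.210 and the WT share 80.0% (20 of 25). The WT list held 15981 H3K4me1 peaks and the mutant list 5358, and the part of this unequal length in the values at the 6 genes was not tested beyond those figures.

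The 12 WT H3K4me1 sites without mutant H3K4me1 lay in acetylated surroundings. WT H3K27ac overlapped 11 of them and mutant H3K27ac all 12. Over all WT H3K4me1 peaks without a mutant counterpart, 51.2% overlapped WT H3K27ac and 50.1% overlapped mutant H3K27ac. H3K4me3, the promoter mark, overlapped 4 of the 12 sites in WT and 4 in the mutant, against 21.7% and 21.5% over all such peaks. Not all of the 12 sites can thus be taken as enhancers. The 12 sites come from only 3 windows around active genes, so they are not independent of each other. The 1 site without WT H3K27ac, inside Axl from 26558828 to 26559812, is where the mutant had an H3K27ac peak of 942 bp that no WT H3K27ac peak met, from 26559021 to 26559962. That mutant peak was weak, with a score of 100.6, above 5.46% of its list, and the count of all 12 rests in part on it.

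H3K27ac covered 71229 bp of the 6 windows in WT against 82319 bp in the mutant, a ratio of 1.16 against 1.02 over the whole lists. At Axl, Jun and Fosl1 together it was 64288 and 77129 bp, while at Egfr, Ngfr and Wnt5a it was 6941 and 5190 bp. Only 2 of the 26 WT H3K27ac peaks had no mutant peak, 7.69% (0.946 to 25.1), and 24.1% of the WT list had none. The share of the list lies inside that interval. The share at the 6 genes was 0% with stricter thresholds, and 14.3% with flanks of 20 kb and 15.0% with flanks of 100 kb (6 of 40). It was 15.4% where a mutant peak had to cover at least 50% of the WT peak. The share of the whole list was not recomputed for the stricter thresholds or for that cover. Of the 21 mutant H3K27ac peaks 3 had no WT peak, with 18.4% in the mutant list. H3K4me3 covered 43032 bp (WT) and 47295 bp (mutant), a ratio of 1.10 against 1.05. All 15 WT H3K4me3 peaks had a mutant peak, where 11.3% of the WT list had none. The interval for the share at the 6 genes was 0 to 21.8%, which holds the share of the list. With flanks of 100 kb 3 of 29 had none, 10.3%, close to the share of the list, and with cover of at least 50% 1 of 15 had none. Of the 16 mutant H3K4me3 peaks 2 had no WT peak, those at the Egfr start and upstream of Fosl1, against 6.18% of the mutant list.

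H3K79me2 covered 38038 bp (WT) and 28451 bp (mutant), a ratio of 0.748 against 0.824 over the whole lists. The ratio was 0.457 over the gene spans and 0.907 over the flanks. With a −log10 q of at least 5, which leaves no peak at Ngfr, the gene spans gave 8242 and 5747 bp, a ratio of 0.697. Axl, with 4950 bp over the gene in WT against 1538 bp in the mutant, and Ngfr, with 3326 and 0 bp, made up most of it. Of the 16 peaks of each genotype 4 had no counterpart, where 36.8% of the WT and 15.3% of the mutant list had none. The WT share at the 6 genes ran from 10.0% with a −log10 q of at least 5 (1 of 10) to 43.8% with cover of at least 50% (7 of 16). The shares of the whole lists were computed only for all peaks and an overlap of 1 bp, so they cannot be set beside these values. H3K79me2 overlapped the start peak of H3K4me3 at Axl, Ngfr and Jun in WT (3 of 5) and at Axl, Jun and Fosl1 in the mutant (3 of 6). In the whole lists 57.7% of WT and 53.3% of mutant H3K4me3 peaks overlapped it. At Fosl1 the mutant overlap was a peak of 344 bp, 3.2 kb inside the gene, and the nearest WT H3K79me2 peak was 3.5 kb inside it. Neither genotype had H3K79me2 within 2 kb of the Fosl1 start.

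H3K27me3 covered 31234 bp (WT) and 43685 bp (mutant), a ratio of 1.40 against 1.36 over the whole lists. Ngfr had 14025 bp more in the mutant, which is more than the difference of the sums, while Egfr (3312 and 1502 bp) and Wnt5a (10268 and 8337 bp) had less. With a −log10 q of at least 5 the ratio was 2.60, and the ratio of the whole lists was not computed at that threshold. Of the WT H3K27me3 peaks 5 of 14 had no mutant peak, against 35.0% of the list, and of the mutant ones 10 of 17 had no WT peak, against 49.9%. Both shares were near those of the whole lists, with intervals of 12.8 to 64.9% and 32.9 to 81.6%.

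**Figure D4:**
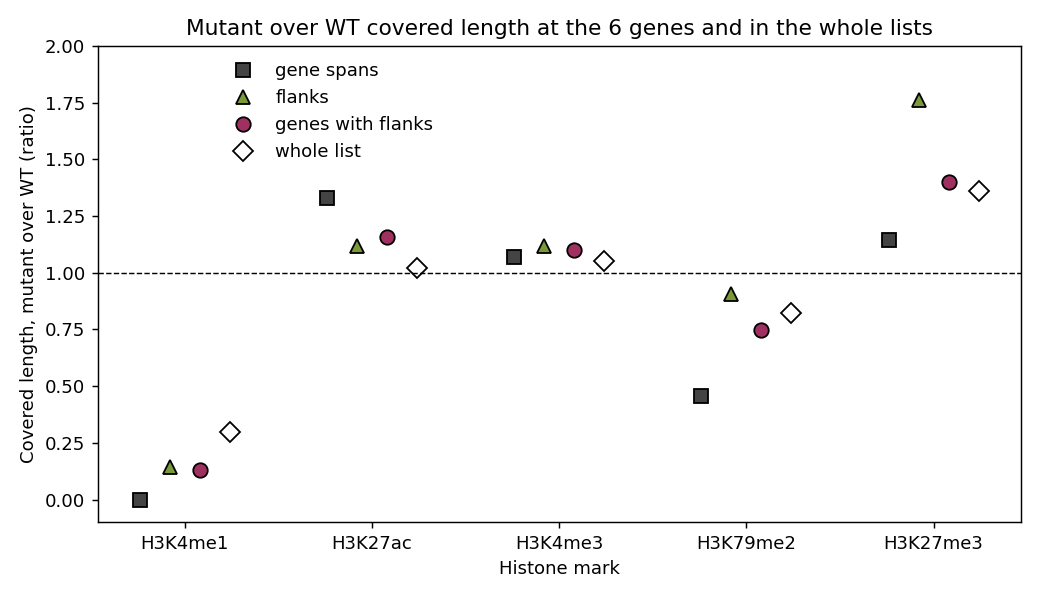
Mutant over WT ratio of covered length (y axis) for each mark (x axis), with squares for the 6 gene spans, triangles for the flanks, circles for genes with flanks and open diamonds for the whole lists; the dashed line is a ratio of 1. H3K4me1 was at 0.129 for genes with flanks and 0.300 for whole lists, and H3K79me2 at 0.457 for gene spans and 0.824 for whole lists.

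Counted by gene, a difference of at least 2-fold in covered length over the window was seen for 9 of the 24 pairs of gene and mark that had a peak. As background the genome was cut into tiles of 100 kb, and each tile with a peak of the mark was judged by the same fold. The windows of 5 genes are 104 to 132 kb long, but that of Egfr, which holds 4 of the 9 pairs, is 262 kb, so a tile is a poor match for it. H3K4me1 was at least 2-fold lower in the mutant in 3 of 3 windows that had it, and in 77.4% of tiles. H3K27ac was so in 1 of 5 windows (Egfr) and 15.1% of tiles. H3K4me3 was lower at Ngfr, 1 of 6, as in 6.12% of tiles, and higher at Egfr, 1 of 6, as in 3.86%. H3K79me2 was lower at Ngfr, 1 of 5, as in 24.5% of tiles, and higher at Egfr, 1 of 5, as in 4.09%. H3K27me3 was lower at Egfr, 1 of 5 windows and 18.6% of tiles, and Ngfr stood just short of 2-fold higher, at 1.97. Of the 9 pairs only H3K4me1 at Axl and Fosl1 and H3K27me3 at Egfr stayed past 2-fold under all 6 alternatives. The Egfr call rests on 1 H3K27me3 peak per genotype, and its lengths changed only with a −log10 q of at least 5. That threshold kept the WT peak and removed the weak mutant one (−log10 q 3.87, above 36.7% of its list). The alternatives could thus hardly end the Egfr call, and its survival is not a test of it. All 9 pairs were picked by size in these same lists. With flanks of 100 kb the ratios were 0.755 for H3K27ac at Egfr, 1.15 for H3K4me3 at Egfr and 0.767 for H3K4me3 at Ngfr. With a −log10 q of at least 5 no H3K79me2 peak was left at Egfr or Ngfr, and with flanks of 20 kb no H3K4me1 at Jun and no H3K27ac at Egfr. With 1 window in each of these groups, a share of the 6 genes cannot be set apart from the tiles.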

How the data were processed

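The 6 genes and their flanks were described in 10 peak lists, 1 library per mark and genotype, as deposited by the authors on mm9. Per the submitters' processing notes, Bowtie, MACS, MACS2 and deepTools were involved; which step each served is not given in the sources used here. The H3K4me1, H3K27ac and H3K4me3 lists give a deposited score per peak, which from its values looks like −log10 p multiplied by 10. The H3K79me2 and H3K27me3 lists are broad peaks with the deposited fold enrichment (ratio over control), −log10 p and −log10 q. Scores and folds are the authors' own and served to describe peaks of 1 list at a time, to rank them and to set thresholds. Strength was not compared directly between libraries, since depth is unknown. The stricter thresholds put the same cut on both genotypes, so ratios under them can also differ with depth. Whole-list ratios were computed only for the full lists.

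Gene spans were those of the rule, given to the nearest 1 kb, with flanks of 50 kb. Peaks reaching over an edge count as members, and covered length was cut at the edge. An overlap of 1 bp or more made a peak shared, and a peak within 1 kb of the span's start counted as a start peak. Strand came from the RefSeq promoter table for 4 genes. Neighbouring genes were named from the GRCm38.p6 table, without coordinates. Peaks printed with coordinates are those at the start, the best-scoring peak per mark without a counterpart, the longest H3K27me3 and H3K79me2 peaks touching the gene, and others chosen after their values were seen. The members and all lists were chosen with earlier results of these data known. Marker and pathway gene lists were not used, as no mm9 gene table was used here; the 2 input libraries were not analysed here. Alternatives were 2 stricter thresholds (score of at least 100 or −log10 q of at least 3; score of at least 200 or −log10 q of at least 5), flanks of 20 and 100 kb, merging peaks within 1000 bp, lists shortened to an equal number of strongest peaks, cover of at least 50% of a peak, and counting peaks within 1000 bp as shared. The ratio over the gene spans alone and the 2-fold calls were recomputed under the alternatives after the data were seen. The overlap code, checked on simulated peak lists, ran under Python 3.11.15 with scipy 1.17.1 and numpy 2.4.6; figures used matplotlib 3.10.9.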

Additional observations from a re-analysis of the deposited data

How the results depend on the processing

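The mutant over WT ratio of H3K4me1 covered length over the 6 windows was 0.129, and moved by over 1.5 times to 0.210 with flanks of 100 kb and 0.223 with lists cut to an equal number of strongest peaks. That of H3K27me3 moved from 1.40 to 2.60 with the still stricter threshold, under which 66.7% of the WT H3K27me3 peaks had no mutant peak (2 of 3) in place of 35.7%. The share of WT H3K27ac peaks without a mutant peak, 7.69%, was 0% with either stricter threshold, with equal numbers of strongest peaks and when peaks within 1000 bp counted as shared, and 14.3 to 15.4% with other flanks or cover of at least 50%. For H3K27me3 the share was 21.4% when peaks within 1000 bp counted as shared. Over the gene spans alone, the still stricter threshold moved the ratio of H3K79me2 from 0.457 to 0.697 and that of H3K27me3 from 1.14 to 2.76, and left no H3K4me1 peak. The causes were not tested. For the 9 pairs of gene and mark past 2-fold, 50 of 54 alternative values kept their direction, 0 turned and 4 fell to no difference. These pairs were picked by size in the same lists, and many alternatives left their peaks unchanged. For H3K4me3 at Ngfr the difference was −1879 bp in every alternative but flanks of 100 kb. The tally is thus not a test of the differences. The 2-fold call itself was kept in 47 of 54 and ended in 7, for 6 of the 9 pairs, and 5 other pairs passed 2-fold under at least 1 alternative. Over all 24 pairs, 133 of 144 kept their direction, 5 turned and 6 fell to 0. The 5 were Fosl1 H3K27ac (−753 bp in place of 2009 bp, flanks of 20 kb), Jun H3K4me3 (631 in place of −300 bp, flanks of 100 kb), Fosl1 H3K27me3 (−615 and −594 in place of 1191 bp) and Wnt5a H3K27me3 (7288 in place of −1931 bp, still stricter threshold). Depth is unknown, and a missing peak says only that no peak passed the authors' threshold.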
